A study of Caenorhabditis elegans with 6 samples.

Results

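The genes described here make, package and take back dopamine and serotonin in the nematode Caenorhabditis elegans. They are 10 of the 47063 genes in the deposited tables and were chosen by name: cat-2, tph-1, bas-1, cat-1, dat-1, mod-5, cat-4, ptps-1, pcbd-1 and qdpr-1, each of which matched 1 gene identifier. RNA-seq was done on 6 libraries, 3 labelled dopamine neurons and 3 labelled serotonin neurons. All 6 libraries came from embryos and larvae of the same strain, FQ939, with the genotype given as WT, and no treatment is named. The sources used here do not say how the neurons were marked and isolated. The labels do not state whether replicates were separate cultures, so each p-value covers the spread among these 6 libraries alone, and that spread may be technical.

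Dopamine and serotonin are built by parallel routes. An aromatic amino acid hydroxylase acts first and sets the pace: tyrosine hydroxylase, encoded by cat-2, for dopamine, and tryptophan hydroxylase, encoded by tph-1, for serotonin. The aromatic amino acid decarboxylase BAS-1 then finishes both amines, and the vesicular monoamine transporter CAT-1 loads both into vesicles. After release, the plasma membrane transporter DAT-1 takes dopamine back, and MOD-5 takes back serotonin. Both hydroxylases consume tetrahydrobiopterin, a cofactor whose synthesis starts with the GTP cyclohydrolase CAT-4 and runs through the pyruvoyl tetrahydropterin synthase PTPS-1. The spent cofactor is restored by the pterin carbinolamine dehydratase PCBD-1 and the dihydropteridine reductase QDPR-1. In this worm the dopamine neurons are the ciliated CEP, ADE and PDE cells, and the serotonin neurons of larvae include NSM in the pharynx and ADF in the head, while some other neurons take serotonin up through MOD-5 without making it.

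The genes lie on 5 chromosomes of the WBcel235 assembly, by the Ensembl release 115 annotation. On chromosome II are cat-2 (WBGene00000296, 257819 to 261074, plus strand) and tph-1 (WBGene00006600, 7549335 to 7551983, plus strand). Chromosome III holds bas-1 (WBGene00000239, 5612274 to 5614660), dat-1 (WBGene00000934, 9242975 to 9246802) and qdpr-1 (WBGene00011398, 13393910 to 13394979), all on the plus strand. On chromosome I are mod-5 (WBGene00003387, 3034716 to 3047794, minus strand), ptps-1 (WBGene00015010, 4652145 to 4652906, minus strand) and pcbd-1 (WBGene00020397, 6951135 to 6951982, plus strand). The cat-1 gene is on chromosome X (WBGene00000295, 5705690 to 5710737, minus strand) and cat-4 on chromosome V (WBGene00000298, 10564880 to 10566464, plus strand). The opposite-strand gene T10B11.8 covers 14.9% of the exonic bases of pcbd-1, and the opposite-strand gene vps-54 covers 6.90% of those of cat-4. Smaller parts of other members are covered too, among them 2.30% of tph-1 by ZK1290.10 and 2.05% of mod-5 by Y54E10BR.2, both on the opposite strand. The cat-2 gene overlaps the opposite-strand gene scc-2 without shared exonic bases. Strandedness is not given, so reads in stretches of shared exonic bases cannot be told apart.

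Recovered reads per library ranged from 20418663 to 31559049, and nuclear ribosomal RNA genes took 40.9% of them in dopamine replicate 1 and 41.5% in serotonin replicate 3, against 7.53% to 13.7% in the other 4 libraries. Some markers of other cells differed between the groups. In the lists for octopamine and tyramine cells, cholinergic and glutamatergic neurons, epidermis, intestine, germ line and coelomocytes no marker passed, and some were too low to test. All 5 pharyngeal muscle markers were higher in serotonin neurons: they summed to 443 to 1038 normalized counts in dopamine libraries and to 43108 to 85739 in serotonin libraries, with none at 0. The 14 pan-neuronal markers summed to 92850 to 137576 in dopamine and 49186 to 73006 in serotonin libraries, and 7 of them were higher in dopamine neurons and none in serotonin neurons. The 5 body wall muscle markers summed to 28948 to 49244 in dopamine and 17160 to 26092 in serotonin libraries, a sum carried by unc-54, which was higher in dopamine neurons, while unc-15 was higher in serotonin neurons (list median log2 fold change -0.19). The 4 touch receptor neuron markers summed to 1679 to 2887 in dopamine and 777 to 1089 in serotonin libraries, and 2 of them were higher in dopamine neurons. Of the 4 glial markers itx-1 was higher in serotonin neurons (list median log2 fold change -0.95). The 3 GABA neuron markers did not move together (list median 1.03). Of them unc-30 was higher in serotonin neurons (log2 fold change -1.46), while unc-25 and unc-47 lay toward dopamine neurons without passing (1.46 and 1.03). The part of these other cells in the differences between cell types was not tested, and in such bulk samples fewer cells of a type and less RNA per cell cannot be told apart. Ratios between genes within 1 library do not depend on how libraries are scaled, and most results below are such ratios, taken on FPKM, which corrects for gene length.

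**Figure D1:**
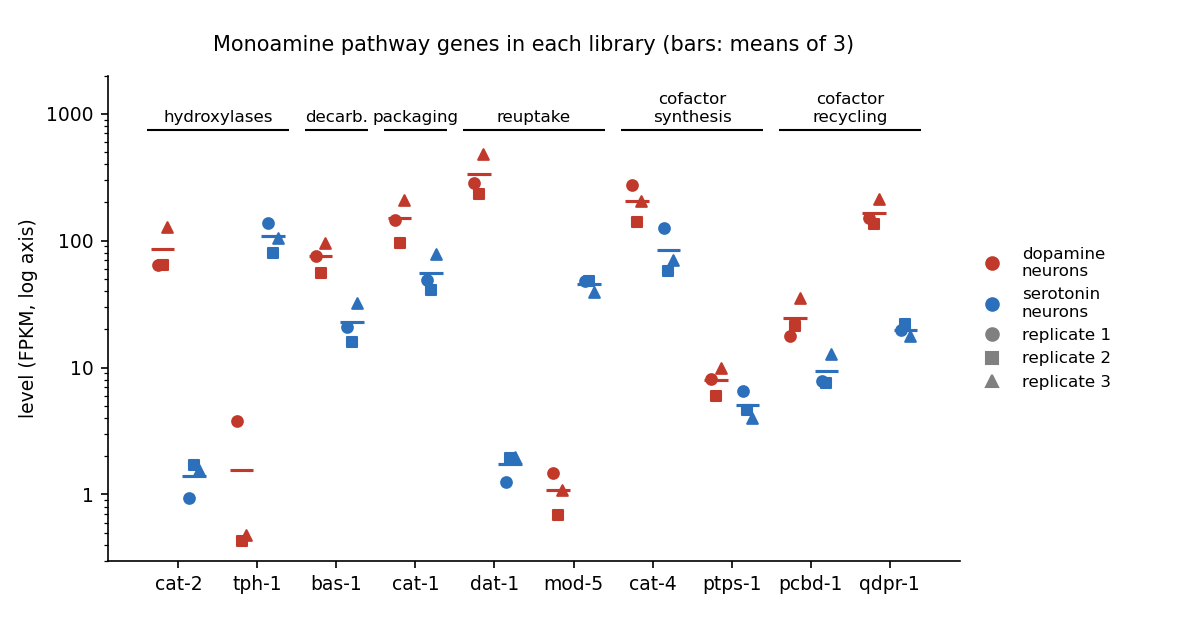
Level of each gene in FPKM (log axis) in the 3 dopamine libraries, left, and the 3 serotonin libraries, right; marker shapes give replicate numbers and bars are means. The dopamine genes cat-2 and dat-1 stood at 63.99 to 486 FPKM in dopamine libraries against 0.94 to 1.97 in serotonin libraries, and tph-1 and mod-5 showed the opposite pattern.

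The hydroxylases and reuptake transporters separated the cell types. The cat-2 level was 64.5, 63.99 and 127 FPKM in dopamine replicates 1, 2 and 3, against 0.94, 1.70 and 1.56 FPKM in serotonin replicates 1, 2 and 3. For dat-1 it was 287, 233 and 486 FPKM in dopamine libraries, against 1.26, 1.94 and 1.97 FPKM in serotonin libraries. Both dopamine genes were thus well expressed in every dopamine library, highest in replicate 3, and under 2 FPKM in every serotonin library. The tph-1 level was 3.78, 0.43 and 0.48 FPKM in dopamine libraries, against 138.8, 80.3 and 104.4 FPKM in serotonin libraries. For mod-5 it was 1.48, 0.69 and 1.08 FPKM in dopamine libraries, against 48.0, 48.2 and 39.6 FPKM in serotonin libraries. The groups did not overlap for any of these 4 genes, as was the case for 12.3% of all tested genes toward dopamine and 15.1% toward serotonin neurons, and dopamine replicate 1 held more tph-1 than the other 2 dopamine libraries.

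The decarboxylase and the vesicular transporter were present in both cell types, at higher levels in dopamine neurons on the deposited scaling. The bas-1 level was 76.0, 55.7 and 95.1 FPKM in dopamine libraries, against 20.8, 15.98 and 32.1 FPKM in serotonin libraries. For cat-1 it was 146, 95.1 and 208 FPKM in dopamine libraries, against 49.2, 40.7 and 78.4 FPKM in serotonin libraries. Replicate 3 was highest and replicate 2 lowest for both genes in both cell types.

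The 4 cofactor genes spanned a wide range of levels. The cat-4 level was 274, 139 and 207 FPKM in dopamine libraries, against 125, 57.2 and 70.5 FPKM in serotonin libraries, with replicate 1 highest in both. The ptps-1 level was 8.10, 6.01 and 9.84 FPKM in dopamine libraries, against 6.56, 4.65 and 4.0 FPKM in serotonin libraries, the only one of the 10 genes whose groups overlapped. It rested on 34 to 174 reads per library. The pcbd-1 level was 17.8, 21.1 and 35.1 FPKM in dopamine libraries, against 7.84, 7.5 and 12.9 FPKM in serotonin libraries. The qdpr-1 level was 151, 136 and 212 FPKM in dopamine libraries, against 19.7, 22.0 and 17.6 FPKM in serotonin libraries. Of the 4 cofactor genes qdpr-1 had the widest gap between the cell types.

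Across all 15750 genes tested by limma on log2(normalized count + 1), 6 of the 10 genes were higher in dopamine neurons at a Benjamini-Hochberg adjusted p under 0.05, where 3.16% of all tested genes were, and 2 were higher in serotonin neurons, where 6.36% were. The first set was cat-2, dat-1, bas-1, cat-1, cat-4 and qdpr-1 and the second tph-1 and mod-5. The log2 fold change, dopamine minus serotonin, was 5.87 (SE 0.37, limma adjusted p = 2.42e-06) for cat-2 and 7.55 (SE 0.32, adjusted p = 2.02e-07) for dat-1. It was -6.78 (SE 0.67, limma adjusted p = 7.17e-05) for tph-1 and -5.42 (SE 0.35, adjusted p = 2.67e-06) for mod-5. Without dopamine replicate 1 the tph-1 value was -7.78 (limma adjusted p = 7.65e-06). Among the shared genes it was 1.74 (SE 0.31, limma adjusted p = 0.00425) for bas-1, 1.40 (SE 0.33, adjusted p = 0.0199) for cat-1, 1.32 (SE 0.34, adjusted p = 0.0301) for cat-4 and 3.05 (SE 0.27, adjusted p = 2.74e-05) for qdpr-1. With the replicate number as a block, pcbd-1 passed too (log2 fold change 1.37, limma adjusted p = 0.0086, and 0.052 without the block), and 6.78% of all tested genes were then higher in dopamine neurons. Calls for cat-1 and cat-4 were lost when single libraries were left out. These fits did not use the block. For cat-1 the limma adjusted p was 0.056 without dopamine replicate 1, 0.102 without dopamine replicate 3 and 0.075 without serotonin replicate 2. Across the alternatives it ranged from 4.13e-05 with the replicate block to 0.159 with pan-neuronal scaling. For cat-4 it was 0.099 without dopamine replicate 1, 0.110 without dopamine replicate 3, 0.112 without serotonin replicate 2 and 0.091 without serotonin replicate 3. Its range ran from 1.27e-04 with the replicate block to 0.368 with pan-neuronal scaling. With these single libraries left out, cat-1 was still 1.13 to 1.38 higher in dopamine neurons on the log2 scale, and cat-4 was 1.08 to 1.29 higher. Without both libraries rich in ribosomal RNA the log2 fold change was 1.65 for cat-1 (limma adjusted p = 0.051) and 1.00 for cat-4 (adjusted p = 0.185).

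Scaling the libraries to the 14 pan-neuronal genes lowered the log2 fold changes of the shared genes by about 0.92, and with them the median over all tested genes, which was -0.07 before and -0.99 after. On this scale 4 of the 10 genes were still higher in dopamine neurons, namely cat-2, dat-1, bas-1 and qdpr-1, where 1.06% of all tested genes were. The tph-1 and mod-5 genes were higher in serotonin neurons, where 21.2% of all tested genes were. The bas-1 log2 fold change was then 0.82 (limma adjusted p = 0.037) and that of qdpr-1 2.13 (adjusted p = 0.0012). For cat-1 and cat-4 it was 0.48 and 0.40 (adjusted p = 0.159 and 0.368), and ptps-1 changed sign, at -0.27 (adjusted p = 0.681), where it had been 0.65 (adjusted p = 0.496) with the deposited scaling.

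Within the dopamine neurons the 8 genes that they use ranked from the transporter down to ptps-1. The mean level was 335 ± 133 FPKM for dat-1, 207 ± 67.4 for cat-4, 166 ± 40.4 for qdpr-1, 149.7 ± 56.5 for cat-1, 85.2 ± 36.3 for cat-2, 75.6 ± 19.7 for bas-1, 24.7 ± 9.20 for pcbd-1 and 7.98 ± 1.92 for ptps-1 (SD, n = 3). All 3 libraries put neighbours in this order, except that cat-4 exceeded qdpr-1, and cat-2 exceeded bas-1, in 2 of the 3. Among 19635 protein-coding genes ranked by FPKM, dat-1 was at position 125, 191 and 80 in dopamine replicates 1, 2 and 3. The cofactor gene qdpr-1 was at 280, 371 and 230, above cat-2 at 794, 948 and 457. The reuptake transporter was thus the most abundant transcript of the dopamine pathway, and the hydroxylase gene stood below cat-1, cat-4 and qdpr-1.

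Within the serotonin neurons the order began with the hydroxylase. The mean level was 108 ± 29.4 FPKM for tph-1, 84.4 ± 36.1 for cat-4, 56.1 ± 19.7 for cat-1, 45.3 ± 4.93 for mod-5, 22.9 ± 8.26 for bas-1, 19.8 ± 2.19 for qdpr-1, 9.40 ± 3.01 for pcbd-1 and 5.07 ± 1.33 for ptps-1 (SD, n = 3). Of these neighbours, cat-4 and cat-1, cat-1 and mod-5, and bas-1 and qdpr-1 kept their order in 2 of the 3 libraries, and the other 4 pairs in all 3. The tph-1 gene was at position 270, 694 and 526 among protein-coding genes, and mod-5 at 988, 1217 and 1661. By mean, cat-4 was second in both cell types, and pcbd-1 and ptps-1 were last. In replicate 3 cat-4 fell below cat-1 in both, at 206.67 against 207.98 FPKM in dopamine and 70.5 against 78.4 FPKM in serotonin neurons.

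Taken as shares of the summed FPKM of the 8 genes, dat-1 made up 31.4 ± 3.61% in dopamine neurons, and tph-1 made up 30.5 ± 2.48% in serotonin neurons. Conversely cat-2 held 8.01 ± 1.52% in dopamine neurons and mod-5 held 13.3 ± 3.56% in serotonin neurons. The share of bas-1 was 7.24 ± 0.31% in dopamine and 6.57 ± 2.08% in serotonin neurons, a difference smaller than the SD in serotonin neurons. The share of cat-1 was 14 ± 1.22% and that of cat-4 20.1 ± 6.03% in dopamine neurons, against 16.1 ± 5.14% and 23.5 ± 5.78% in serotonin neurons. The qdpr-1 share was 16.1 ± 1.82% in dopamine and 5.86 ± 1.80% in serotonin neurons. The summed FPKM of the 8 genes was 1024, 750.1 and 1380.3 in dopamine libraries, against 416, 277 and 359 in serotonin libraries.

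**Figure D2:**
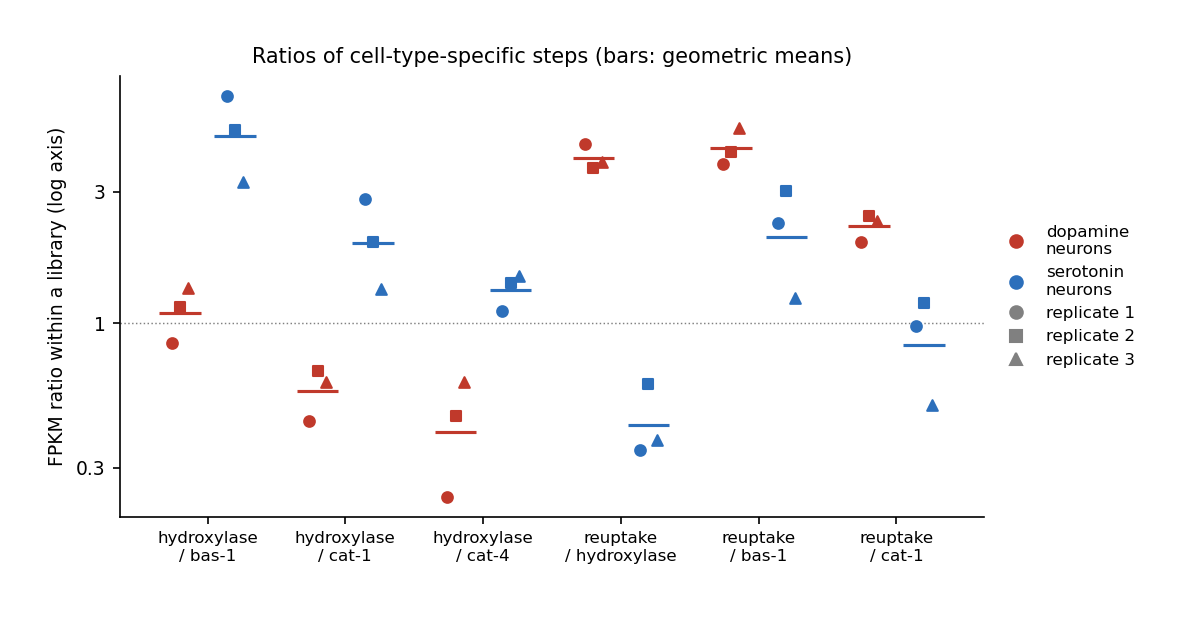
FPKM ratio within each library (log axis) for steps filled by a different gene in each cell type; dopamine libraries (cat-2 as hydroxylase, dat-1 as reuptake transporter) are left and serotonin libraries (tph-1 and mod-5) right, and bars are geometric means of 3. Reuptake exceeded the hydroxylase in every dopamine library, at 3.64 to 4.45, and stayed below it in every serotonin library, at 0.346 to 0.600.

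Transcript levels of the reuptake gene lay above those of the hydroxylase gene in dopamine libraries and below them in serotonin libraries. The ratio of dat-1 to cat-2 was 4.45, 3.64 and 3.83 in dopamine libraries, against a ratio of mod-5 to tph-1 of 0.346, 0.600 and 0.379 in serotonin libraries. The geometric means were 3.96 and 0.429, a 9.23-fold difference (log2 difference 3.21, exact permutation p = 0.10, two-sided). That p is the smallest that 3 against 3 libraries can give, so no ratio tested in this way could pass 0.05. Over the 21 ratios compared, the adjusted exact p was 0.15 for each ratio at that limit. All 6 role-matched ratios were at the limit, with no overlap between the cell types. Each of them sets different genes against each other, so these tests describe levels and not a change in any 1 gene, and non-overlap alone says little. The exact sign-flip test on same-numbered libraries cannot go below 0.25.

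Relative to the decarboxylase, the hydroxylase was scarcer in dopamine neurons. The ratio of cat-2 to bas-1 was 0.849, 1.15 and 1.34 in dopamine libraries, against a ratio of tph-1 to bas-1 of 6.68, 5.03 and 3.26 in serotonin libraries. The 2 enzymes of dopamine synthesis thus had near-equal transcript levels per length, while tph-1 exceeded bas-1 in each serotonin library. The ratio of the hydroxylase to cat-1 was 0.442, 0.673 and 0.611 in dopamine libraries, against 2.82, 1.97 and 1.33 in serotonin libraries. Relative to cat-4, which feeds cofactor to the hydroxylase, it was 0.236, 0.460 and 0.615 in dopamine libraries, against 1.11, 1.40 and 1.48 in serotonin libraries. The serotonin ratios were 4.37-fold, 3.44-fold and 3.26-fold above the dopamine ratios to bas-1, cat-1 and cat-4 by geometric mean (log2 differences -2.13, -1.78 and -1.70, exact permutation p = 0.10 each, two-sided).

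The reuptake transporters differed in the other direction and by less. The ratio of dat-1 to bas-1 was 3.78, 4.19 and 5.11 in dopamine libraries, against a ratio of mod-5 to bas-1 of 2.31, 3.02 and 1.23 in serotonin libraries. Both transporter transcripts thus exceeded bas-1 in every library of their own cell type. The ratio of dat-1 to cat-1 was 1.97, 2.45 and 2.34 in dopamine libraries, against a ratio of mod-5 to cat-1 of 0.977, 1.18 and 0.505 in serotonin libraries. The reuptake transcript thus stood above that of cat-1 in each dopamine library and near or below it in the serotonin libraries. These ratios differed by 2.68-fold in geometric mean (exact permutation p = 0.10, two-sided). Serotonin replicate 3 was the lowest for both ratios.

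These comparisons rest on the gene lengths behind the FPKM values. For 8 of the 10 genes the implied length lay within 10% of the annotated exon union, but for cat-2 it was 0.707 and for mod-5 0.794 of it. With the exon union as length, the dat-1 to cat-2 ratio was 5.73 in dopamine neurons and the mod-5 to tph-1 ratio 0.342 in serotonin neurons by geometric mean. The cat-2 to bas-1 ratio fell to 0.763 in dopamine neurons, against 4.71 for tph-1 to bas-1 in serotonin neurons, so that bas-1 ranked above cat-2. All 6 role-matched ratios still kept the cell types apart.

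**Figure D3:**
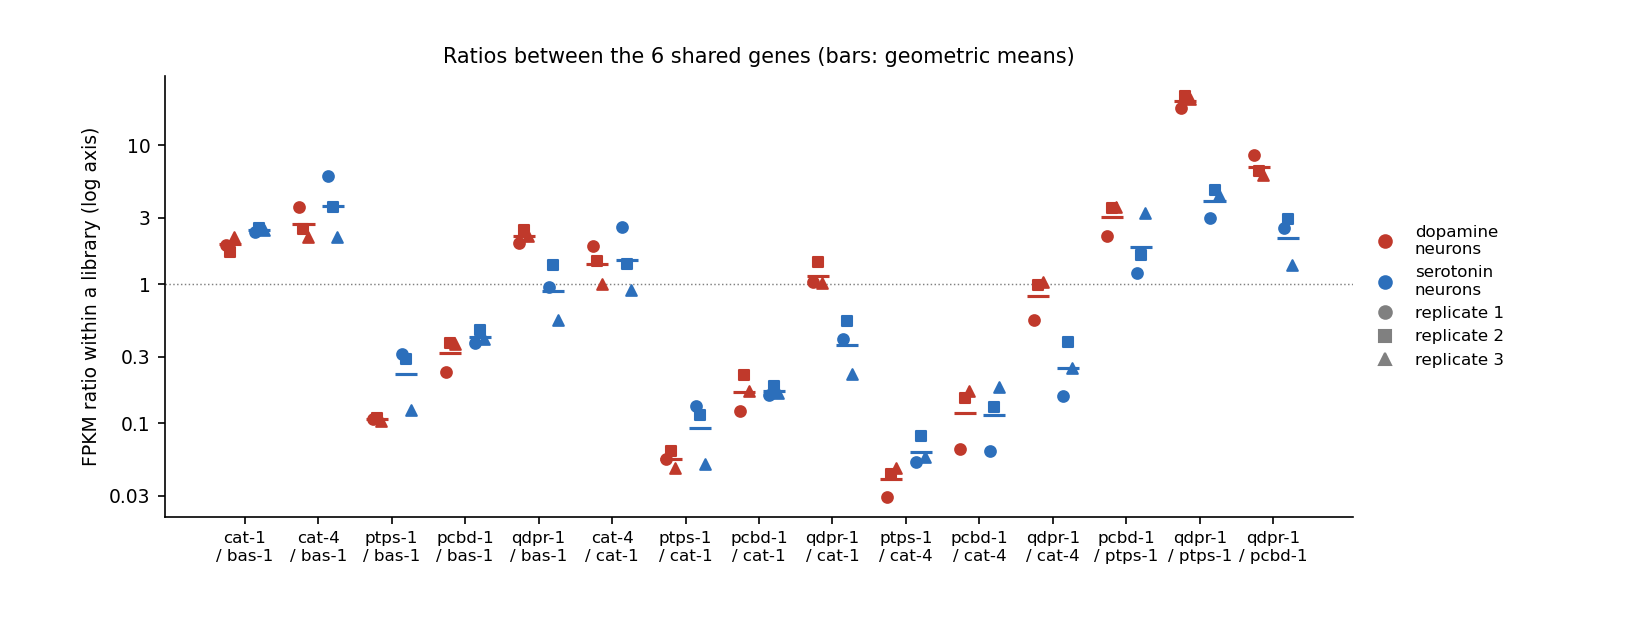
FPKM ratio within each library (log axis) for all 15 pairs of the 6 genes that both cell types use; dopamine libraries are left and serotonin libraries right, and bars are geometric means of 3. The 5 ratios with qdpr-1 on top were higher in every dopamine library than in any serotonin library, whereas cat-4 to cat-1 and pcbd-1 to cat-1 overlapped.

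Among the 6 genes that both cell types use, 8 of 15 pairwise ratios did not overlap between the cell types, where 28.1% of the ratios of any 2 tested genes did not. All 5 ratios that involve qdpr-1 were among the 8, and since they share that gene they are not independent. The ratio of qdpr-1 to ptps-1 was 18.6, 22.7 and 21.6 in dopamine libraries, against 3.01, 4.72 and 4.40 in serotonin libraries (5.26-fold). The ratio of qdpr-1 to pcbd-1, its partner in cofactor recycling, was 8.45, 6.46 and 6.04 in dopamine libraries, against 2.52, 2.93 and 1.37 in serotonin libraries (3.20-fold). The ratio of qdpr-1 to cat-4 was 0.550, 0.979 and 1.03 in dopamine libraries, against 0.157, 0.384 and 0.250 in serotonin libraries (3.32-fold). The qdpr-1 transcript thus stood near the level of the cat-4 transcript in 2 of the dopamine libraries. It lay well below that of cat-4 in each serotonin library (exact permutation p = 0.10 for each ratio, two-sided).

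The other 3 ratios without overlap were those of cat-1 to bas-1, ptps-1 to bas-1 and ptps-1 to cat-4. The ratio of cat-1 to bas-1 was 1.92, 1.71 and 2.19 in dopamine libraries, against 2.36, 2.55 and 2.44 in serotonin libraries, a small difference (log2 difference -0.35) between groups of narrow spread. The ratio of ptps-1 to bas-1 was 0.107, 0.108 and 0.104 in dopamine libraries, against 0.316, 0.291 and 0.125 in serotonin libraries, and serotonin replicate 3, with 34 reads of ptps-1, lay close to the dopamine values. The ratio of ptps-1 to cat-4 was 0.0296, 0.0432 and 0.0476 in dopamine libraries, against 0.0523, 0.0813 and 0.0568 in serotonin libraries.

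From replicate 1 to replicate 3, the cat-4 to cat-1 ratio fell in both cell types. The ratio of cat-4 to cat-1 was 1.88, 1.46 and 0.994 in dopamine replicates 1, 2 and 3, against 2.55, 1.40 and 0.899 in serotonin replicates 1, 2 and 3. The geometric means of 1.40 and 1.48 differed by a log2 difference of -0.08, far less than the SD within either cell type of 0.46 and 0.75 on the log2 scale. Between libraries of the same number the log2 difference was -0.44 to 0.14. The ratio of pcbd-1 to cat-4 was 0.0651, 0.151 and 0.170 in dopamine libraries, against 0.0625, 0.131 and 0.183 in serotonin libraries, with replicate 1 lowest in both.

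**Figure D4:**
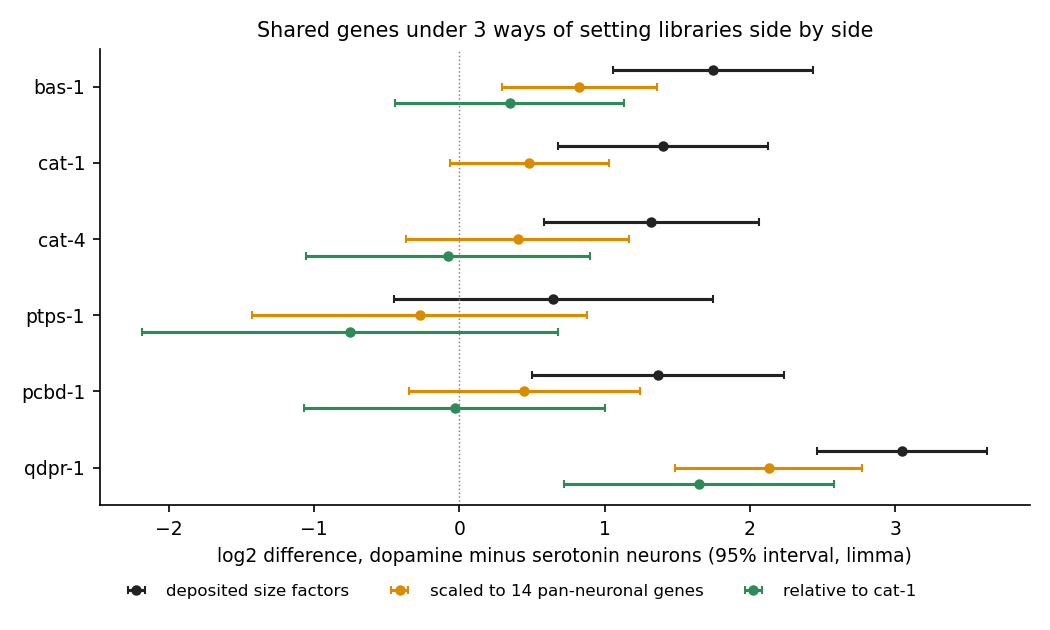
Log2 difference, dopamine minus serotonin neurons, with 95% intervals from limma for the 6 shared genes, under the deposited size factors (black), after scaling to 14 pan-neuronal genes (orange) and relative to cat-1 in the same library (green, cat-1 itself not shown). Relative to cat-1, qdpr-1 was the only one of the 5 others whose interval stayed above 0.

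To test ratios with the spread estimated over all genes, each gene was set relative to cat-1 in its own library and fitted by limma. Of the 9 other genes, 5 differed between the cell types: cat-2, tph-1, dat-1, mod-5 and qdpr-1. The share of all genes called in this fit was 35.4%, since the deviation of cat-1 itself enters every ratio, so a call here carries little weight alone. The libraries of the cell types did not overlap for 6 of the 9, these 5 and bas-1, and for 52.4% of all genes. Relative to cat-1, qdpr-1 was higher in dopamine neurons by 1.65 on the log2 scale (SE 0.43, limma adjusted p = 0.0165, and from 4.61e-06 to 0.101 across the alternatives). The call was lost without both libraries rich in ribosomal RNA, where the log2 difference was 1.38 and the limma adjusted p 0.101. With bas-1 as denominator the same 5 genes passed, and the qdpr-1 difference was 1.31 (limma adjusted p = 0.0156). The share of all genes called with that denominator was not counted, so these calls carry little weight alone too.

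For the remaining 4 shared genes no difference relative to cat-1 was detected, and the intervals leave room for moderate ones. The log2 difference was 0.34 for bas-1 (95% interval -0.44 to 1.13), -0.08 for cat-4 (-1.06 to 0.90), -0.03 for pcbd-1 (-1.07 to 1.00) and -0.75 for ptps-1 (-2.19 to 0.68). With the replicate block the intervals narrowed to -0.12 to 0.80 for bas-1 and -0.50 to 0.34 for cat-4. The signs for cat-4 and pcbd-1 changed when some single libraries were left out.

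In dopamine libraries these genes varied less relative to cat-1 than in level. There the SD of the log2 ratio to cat-1 was smaller than that of the log2 level for 7 of 7 genes, with a median of 0.28 against 0.49. In serotonin libraries it was smaller for 2 of 7, bas-1 and pcbd-1, and the median was 0.64 against 0.39. The bas-1 to cat-1 ratio was the steadiest in serotonin libraries, at 0.423, 0.392 and 0.409. The levels of mod-5 and qdpr-1 were steady there (CV 10.9% and 11.1%), while their ratios to cat-1 varied with cat-1. These are descriptions over 3 libraries with no test. All the ratios share cat-1 as denominator, and the share of all tested genes with the same pattern was not counted. The counts can thus not be read as particular to this pathway.

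Genes of the opposite amine were detected at low levels. In serotonin libraries cat-2 had 92, 131 and 49 reads and dat-1 152, 184 and 76, which on normalized counts was 1.65% and 0.513% of their dopamine means. In dopamine libraries mod-5 had 64, 57 and 81 reads, or 2.39% of its serotonin mean, and tph-1 had 151, 33 and 33 reads. Set against the serotonin mean, tph-1 was at 3.50%, 0.40% and 0.443% in dopamine replicates 1, 2 and 3, and mod-5 at 3.27%, 1.52% and 2.39%.

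Ratios of such low levels were chosen after the values were seen and are given as a description. The ratio of tph-1 to mod-5 was 2.55, 0.623 and 0.444 in dopamine libraries, against 2.89, 1.67 and 2.64 in serotonin libraries, so that dopamine replicate 1 alone lay within the serotonin range. The ratio of cat-2 to dat-1 was 0.225, 0.275 and 0.261 in dopamine libraries, against 0.746, 0.876 and 0.792 in serotonin libraries, with no overlap. The source of these low levels was not tested.

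Of 34 other pathway genes, in 4 lists of related enzymes and transporters, 32 were found and 24 tested. None passed by limma, which called 9.52% of all tested genes in either direction, and 6 had an unadjusted p under 0.05. By edgeR 0 passed, where 7.39% of all tested genes did, and by DESeq2 3 passed, where 13% did. With the replicate block 6 passed, where 18.5% of all tested genes did, namely tdc-1 and basl-1 toward dopamine neurons and amx-1, snf-1, snf-2 and snf-9 toward serotonin neurons. Without the block, log2 fold changes reached -3.28 for snf-2 (SE 1.57) and 2.08 for tbh-1 (SE 0.79), so a missed threshold does not show that these genes were alike in the cell types. Among 7 tested amine and pterin enzymes the median log2 fold change was 1.26, beside -0.07 over all tested genes, and with pan-neuronal scaling it was 0.34, beside -0.99. The tyrosine decarboxylase gene tdc-1, which makes tyramine, stood at 145, 292 and 255 normalized counts in dopamine libraries, against 83.0, 98.5 and 60.2 in serotonin libraries (log2 fold change 1.47, limma adjusted p = 0.0538). The dihydrofolate reductase gene dhfr-1 stood at 113, 175 and 250.4 in dopamine libraries, against 98.3, 45.5 and 78.6 in serotonin libraries (log2 fold change 1.26, limma adjusted p = 0.140). These levels were low beside the 2071 to 3537 and 594 to 1193 normalized counts of bas-1 in dopamine and serotonin libraries.

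Among 5 tested genes listed as breakdown enzymes the median log2 fold change was -0.97, and -1.89 with pan-neuronal scaling. The gene amx-1, named for amine oxidase, stood at 313, 359 and 225 normalized counts in dopamine libraries, against 735, 571 and 448 in serotonin libraries, with no overlap (log2 fold change -0.96, limma adjusted p = 0.0897). Whether its product acts on dopamine or serotonin was not tested. The gene comt-3, named for catechol-O-methyltransferase, stood at 272, 288 and 416 in dopamine libraries, against 279, 138 and 347 in serotonin libraries. The vesicular transporter genes of other transmitters, unc-17 for acetylcholine and unc-47 for GABA, had log2 fold changes of -0.49 and 1.03 and did not pass (list median -0.20 over 5 tested, and -1.12 with pan-neuronal scaling). Among 7 other SLC6 transporter genes the median was -0.29, and -1.21 with pan-neuronal scaling. The 2 with the highest mean were snf-1, at 1060, 3004 and 1358 normalized counts in dopamine libraries against 2266, 5626 and 2384 in serotonin libraries, and snf-3 (log2 fold change -0.14).

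The genes whose profile over the 6 libraries lay closest to these members were found by the root mean square difference of centred log2 values, as a description. For dat-1 they were F59F3.6 (0.136) and F58H7.1 (0.305), and for cat-2 R11G1.1 (0.350) and acc-3 (0.351). For tph-1 they were acr-3 (0.404) and F33C8.2 (0.623), and for mod-5 F20B10.3 and clec-258 (0.406 each). For bas-1 they were T19D12.6 (0.109) and clp-4 (0.120), and for cat-1 nhx-4 (0.119) and the pan-neuronal vesicle gene rab-3 (0.130). The rab-3 gene stood at 12071, 9723 and 17110.1 normalized counts in dopamine libraries, against 4562, 3659 and 8089 in serotonin libraries, with replicate 3 highest and replicate 2 lowest in both, the pattern also seen for cat-1 and bas-1. Since rab-3 was picked for its closeness to cat-1 over these same libraries, its likeness to cat-1 follows from that choice.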

How the data were processed

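RNA-seq libraries from 3 samples of dopamine neurons and 3 of serotonin neurons were compared. Per the labels' protocols, RNA labelled polyA was extracted with the PicoPure kit, and small amounts of it went into Ovation RNA-seq libraries. STAR, HTSeq and DESeq2 are listed, without roles, per the submitters' processing notes. The sources used here give no versions, build or strandedness. One table deposited by the authors is a signal, normalized counts, in which reads per gene are divided by 1 size factor per library, and the other holds FPKM values deposited by the authors, in which the same normalized counts are divided by gene length (largest CV of their ratio over libraries 1.71e-04 over 1889 genes). Whole reads were recovered from the normalized counts (tolerance 0.02, at least 99.998% of values per library), and 1 read was worth 0.393 to 1.23 normalized counts. Replicates differed far beyond counting error (chi-square per degree of freedom 136 to 642).

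Genes were matched by identifier to Ensembl release 115 (46407 of 47063). Genes with at least 10 normalized counts in at least 3 libraries were tested by limma 3.58.1 (R 4.3.3, trend and robust) on log2(normalized count + 1), with Benjamini-Hochberg adjustment over all of them. The added 1 understates changes of low genes. FPKM ratios used no pseudocount and were compared by exact permutation tests over libraries. The fits were tested on simulated data. There the limma fit between cell types recovered 4 of 67 genes changed 2-fold, 25 of 67 changed 4-fold and 45 of 66 changed 16-fold. It called 4 unchanged genes. A gene that did not pass may thus still differ between the cell types. Recovered reads were also tested with DESeq2 1.42.0 and edgeR 4.0.16 as alternatives. Same-numbered libraries deviated together (correlations of 0.433, 0.173 and 0.28 between cell types, over 0.1 for each pair), so the numbers were used as a block in an alternative fit. The main limma fits and the exact permutation tests did not use them. Named genes were the 10 members, the leading genes of the other lists (the largest changes among those that passed, or else the 2 with the highest mean), and the 2 genes most like each of 6 members. The members and lists were chosen with earlier results of these data known.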

Additional observations from a re-analysis of the deposited data

How the results depend on the processing

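The count of the 10 genes higher in dopamine neurons was 6, and 4 to 7 over the alternatives. That higher in serotonin neurons was 2 throughout. Over all 15750 tested genes, 498 were higher in dopamine neurons, 167 with pan-neuronal scaling and 1068 with the replicate block. Toward serotonin neurons 1002 were higher, 581 without serotonin replicate 3 and 3337 with pan-neuronal scaling. With the replicate block 7 members were higher in dopamine neurons, by the addition of pcbd-1, and no other call on a member changed. The count of member ratios to cat-1 that differ was 5, where 35.4% of all genes were called. It was 4 without both libraries rich in ribosomal RNA, where that share was not counted. Of the 15 ratios between shared genes 8 did not overlap, where 28.1% of the ratios of any 2 tested genes did not. The count was 8 to 10 with 1 library left out, and in 12 all 3 same-numbered differences had 1 sign (replicate block). For those settings the share over all gene pairs was not counted, and the 15 ratios share 6 genes, so these counts carry little weight alone. The 6 role-matched ratios did not overlap in any setting. Leaving out a library cannot make separate groups overlap, and separate groups always give same-numbered differences of 1 sign. These settings could thus not lower either count. Only other gene lengths could have changed the role-matched result. For the other pathway genes, where 0 passed, settings chosen after seeing the data gave 1 (pseudocount 8, and a filter of 50), 2 (quantile normalization, adjusted p under 0.10, and without both libraries rich in ribosomal RNA), 3 (pan-neuronal scaling and DESeq2) and 6 (replicate block), and 0 to 3 with 1 library left out. The share of all tested genes called was 9.52% in the main fit, 13% by DESeq2 and 18.5% with the replicate block. With pan-neuronal scaling it was 21.2% toward serotonin and 1.06% toward dopamine neurons. Signs changed for ptps-1 under pan-neuronal scaling (log2 fold change -0.27) and for differences near 0: that of pcbd-1 to cat-1 was 0.17 without both libraries rich in ribosomal RNA. With 1 library left out, the limma difference relative to cat-1 ranged from -0.44 to 0.31 for cat-4 and from -0.24 to 0.19 for pcbd-1, and the log2 FPKM ratio from -0.44 to 0.31 for cat-4 to cat-1, from -0.23 to 0.20 for pcbd-1 to cat-1 and from -0.38 to 0.49 for pcbd-1 to cat-4. The cause of these changes was not tested. Depth limits ptps-1, with 34 to 174 reads per library, and the low levels of tph-1, mod-5, cat-2 and dat-1 outside their own cell type, with 33 to 184 reads. Quantile normalization moved the median log2 fold change over all genes to 0.13.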
